A study of Mus musculus with 18 samples.

Results

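The genes examined were 10 components of bone morphogenetic protein (BMP) signalling, which is known to oppose fibrosis driven by TGF-beta: the ligands Bmp4 and Bmp7, the receptors Bmpr1a, Bmpr1b and Bmpr2, the secreted antagonist Grem1, the signal transducers Smad1 and Smad5, and the target genes Id1 and Id3. They were taken by name from a list and matched through their Ensembl identifiers, and all 10 were found among 55416 gene identifiers. The 18 RNA libraries came from mouse optic nerve head, where the fibres of the optic nerve exit the globe, cut out of sections by laser capture microdissection. Of these, 3 libraries carried the label B6.EDA+/+ at 22 months, 5 the label C57BL/6J control at 22 months, 5 the label B6.EDA+/+ at 12 months and 5 the label C57BL/6J control at 12 months. As background, B6.EDA+/+ mice carry a fibronectin gene engineered so that its transcripts always keep the extra domain A (EDA) exon, and no other allele or treatment is named in the labels for any group. The labels give no sex or litter and do not say whether each library came from a separate mouse, so p-values describe only how much these libraries scatter, and that scatter may be technical. The question for these genes was whether the BMP arm differed with the fibronectin genotype or with age.

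BMP ligands are secreted dimers that bring type I and type II serine-threonine kinase receptors together at the cell surface. The type II receptor activates the type I receptor, which phosphorylates Smad1 and Smad5, and these enter the nucleus with Smad4 and switch on genes such as Id1 and Id3, inhibitors of helix-loop-helix transcription factors. Gremlin, the product of Grem1, binds BMP ligands and keeps them from their receptors. In the eye, BMP4 and BMP7 are known as counterweights to TGF-beta2 in the trabecular meshwork and the optic nerve head, where TGF-beta drives deposition of extracellular matrix.

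Depth per library lay between 13097498 and 18488733 expected counts, with 9703 to 13048 genes at 10 reads or above. The astrocyte filament gene Gfap was abundant in all 18 libraries, with a median of 5622 TPM (a level scaled for transcript length and library total), while Tyr, a pigment cell gene, was at 0 in all 18. The summed level of 5 astrocyte markers ran from 3437.84 to 7078.74 TPM in control-labelled and from 6558.73 to 18768.23 TPM in EDA-labelled libraries of 12 months; at 22 months the values were from 4478.63 to 6113.21 and from 3112.31 to 8547.88 TPM. The highest of these, 18768.23 TPM, belonged to replicate 4 of the EDA-labelled 12-month group, a library that also stood apart in several of the genes below. Gfap was the most abundant of the 5 markers, ahead of Slc1a3 at a median of 480.18 TPM, so the astrocyte sums mostly reflect Gfap. Replicate 2 of the control-labelled 22-month group held 4447.66 TPM of 5 photoreceptor markers, against at most 160.25 TPM in the other 17 libraries. Replicate 1 of the EDA-labelled 22-month group held 240.27 TPM of 4 skeletal muscle markers, against at most 0.69 TPM in the other 17. Replicate 3 of the EDA-labelled 12-month group and replicate 3 of the control-labelled 22-month group held 21761.54 and 22346.61 TPM of 5 oligodendrocyte markers, against at most 6165.74 TPM in the other 16. The part of these libraries in the results below was not tested, and values without them are given for some results. A single gene without a symbol, ENSMUSG00000119584, took 3.263% to 32.848% of the reads of a library. Reads of Xist, a transcript of female cells, outnumbered those of Y-linked genes in 2 of 5 control-labelled and 2 of 5 EDA-labelled libraries of 12 months. At 22 months this held for 0 of 5 control-labelled and 1 of 3 EDA-labelled libraries, so sex-linked transcripts were not balanced between the groups. In the deposited isoform estimates the fibronectin EDA exon did not follow the labels. Its share of isoform TPM was 0 in 4 of the 8 libraries with the EDA label and 5 of the 10 with the control label. The medians were 4.12% and 4.45% and the highest values 58.46% and 100%. Reads over the exon itself were not counted, so these estimates do not settle whether a library kept it. Libraries are therefore called EDA-labelled and control-labelled, and every direction between them is one between labels.

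Promoter sequences are shown for the target that dominated the readout, Id3, and for the antagonist that was almost undetected, Grem1, because the 2 genes mark the ends of the range of levels found. Each runs from 250 bases before to 50 bases after the RefSeq start, in GRCm38.p6, and capitals mark matches to CAGAC or its reverse complement GTCTG, the core box bound by Smad proteins, and to GGCGCC, a GC-rich element known to bind Smad1 and Smad5. Id3 lies on the plus strand at chr4:136143572-136143871, and Grem1 on the minus strand at chr2:113758599-113758898.
Id3: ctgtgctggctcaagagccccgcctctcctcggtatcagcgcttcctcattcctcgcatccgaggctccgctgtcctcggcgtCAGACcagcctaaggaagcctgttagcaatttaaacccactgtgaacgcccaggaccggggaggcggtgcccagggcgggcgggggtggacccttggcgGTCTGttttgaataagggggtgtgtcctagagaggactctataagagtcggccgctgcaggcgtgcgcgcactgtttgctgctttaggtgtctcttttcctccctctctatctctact
Grem1: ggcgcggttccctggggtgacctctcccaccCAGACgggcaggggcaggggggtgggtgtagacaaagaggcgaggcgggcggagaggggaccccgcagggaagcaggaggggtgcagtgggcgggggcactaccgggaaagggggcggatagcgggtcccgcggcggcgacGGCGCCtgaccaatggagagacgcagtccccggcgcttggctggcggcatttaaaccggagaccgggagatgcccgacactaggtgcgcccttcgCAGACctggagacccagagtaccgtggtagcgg
The Id3 window held 2 matches to the Smad box and 0 to GGCGCC, and the Grem1 window held 2 and 1. Of 32851 mouse promoter windows of this length, 49.6% held at least 1 Smad box on either strand and 11.9% held GGCGCC. The Smad box is thus common and GGCGCC less so, and the matches describe the letters only. RefSeq windows were matched for 8 of the 10 genes. Among the others GGCGCC was present once in the windows of Bmpr1a and Bmpr2 and in 2 of 3 windows of Smad5, and neither motif was present in those of Bmp4 and Smad1. Id1 and Bmp7 have no window in the table used.

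The level of these genes covered the whole range from undetected to highly abundant. Id3 was the most abundant with a median of 185.63 TPM over 18 libraries (rank 501 of 25102 genes with a read). Bmpr1a followed at 58.5 TPM (rank 1575), Smad5 at 26.1 TPM (rank 2892), Bmpr2 at 18.1 TPM (rank 3634), Bmpr1b at 14.1 TPM (rank 4227) and Smad1 at 5.05 TPM (rank 7039). The ligands and the antagonist were at the bottom: Bmp7 had a median of 1.24 TPM, Bmp4 of 0.03 TPM and Grem1 of 0 TPM, and the target Id1 lay among them at 0.40 TPM. Receptors and Smads were thus measured in every library, whereas Bmp7 was at 0 in 3, Id1 in 6, Bmp4 in 9 and Grem1 in 17 of 18 libraries. The ranges of the 4 group medians did not overlap between Id3 and Bmpr1a, between Bmpr1a and Smad5, between Bmpr1b and Smad1 and between Smad1 and Bmp7. They overlapped between Smad5 and Bmpr2, between Bmpr2 and Bmpr1b, and between each neighbouring pair of Bmp7, Id1, Bmp4 and Grem1. The order is a description without a test.

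**Figure D1:**
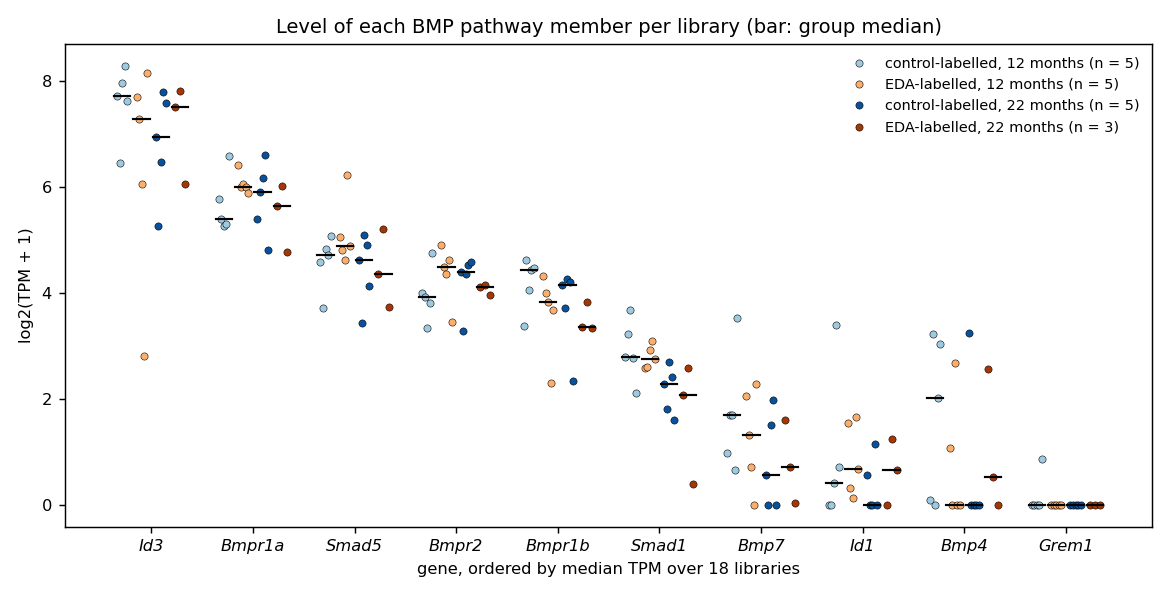
Level of each of the 10 genes in each library, as log2(TPM + 1), with 1 point per library, colours for the 4 groups and a bar at each group median. Id3 lies above Bmpr1a, the next gene in the order, in 16 of 18 libraries, Grem1 is above 0 in 1 library, and the 4 groups overlap for every gene but Smad1, whose EDA-labelled libraries lie at 5.02 TPM or above at 12 months and at 4.95 TPM or below at 22 months.

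Ligands. Bmp4, which signals mainly through Bmpr1a and Bmpr1b with Bmpr2, was detected in some libraries of every group. Values are given here and below as CPM (reads scaled to library size by TMM), in the order of the replicate numbers. At 12 months Bmp4 was at 0.0650, 8.31, 0, 2.76 and 9.12 CPM in control-labelled and at 0.978, 0, 1.67, 0 and 0 CPM in EDA-labelled libraries. In the 22-month groups Bmp4 reached 3.46, 0, 0, 0 and 0 CPM under the control label and 1.58, 0.413 and 0 CPM under the EDA label. The 3 highest values, 9.12, 8.31 and 3.46 CPM, were all in control-labelled libraries, but 5 of the 10 control-labelled libraries were at 0, so the groups overlapped. In edgeR's quasi-likelihood test the log2 fold change of EDA-labelled minus control-labelled libraries was -2.91 ± 1.93 (SE) at 12 months and -0.05 ± 2.25 at 22 months, both with an adjusted p of 1.0. Without control-labelled replicate 1 of 22 months, the only library of its group with reads of Bmp4, the fitted value at 22 months was 6.35.

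Bmp7, a ligand of the same pathway that is known to antagonise TGF-beta in several organs, was detected in 15 libraries. At 12 months it was at 2.68, 6.60, 5.89, 1.41 and 25.97 CPM in control-labelled and at 6.13, 3.63, 1.46, 0 and 8.45 CPM in EDA-labelled libraries. At 22 months it was at 1.42, 0, 4.14, 6.46 and 0 CPM in control-labelled and at 4.42, 1.44 and 0.0880 CPM in EDA-labelled libraries. The highest value, 25.97 CPM from 376 reads, came from control-labelled replicate 5 of 12 months, which also held the only Grem1 reads and the highest Bmp4 value. The fitted difference between labels was -1.11 ± 1.33 (SE) at 12 months and -0.07 without that library. At 22 months it was -0.27 ± 1.55 (SE), and 0.01 without control-labelled replicate 3 of 22 months, a library rich in oligodendrocyte markers. Between ages it was -1.82 ± 1.34 in control-labelled libraries, or -0.78 without control-labelled replicate 5 of 12 months. None of these passed the threshold (adjusted p = 1.0 in each).

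Antagonist. Grem1 was counted in 1 library only, with 34 reads, 2.35 CPM and 0.83 TPM in control-labelled replicate 5 of 12 months. In the other 17 libraries a count of 0 allowed up to 3 reads, which is 0.156 to 0.264 CPM depending on the library, counting error only. Grem1 did not pass the filter on low counts and was not tested.

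Receptors. Bmpr1a, the more abundant of the 2 type I BMP receptors listed, was counted by 1521 to 4131 reads per library. The 12-month values were 150.2, 141, 158, 108 and 285 CPM with the control label and 187, 178, 186, 106 and 136 CPM with the EDA label. The 22-month values were 169.5, 265, 182, 236 and 119.8 CPM with the control label and 147, 165 and 134 CPM with the EDA label. All groups overlapped, and its within-group SD of 0.42 on the log2 scale was the smallest of the 9 genes tested, larger than in 23.8% of 593 genes of like abundance, or 42.3% without EDA-labelled replicate 4 of 12 months. The fitted differences were small, at -0.09 ± 0.29 (SE) between labels at 12 months, -0.39 ± 0.34 between labels at 22 months, 0.21 ± 0.29 between ages in control-labelled and -0.09 ± 0.34 between ages in EDA-labelled libraries. The sign at 12 months turned to 0.03 without EDA-labelled replicate 4 and to 0.19 without control-labelled replicate 5.

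Bmpr1b, the other type I receptor, had lower counts and 2 libraries that lay far from their groups. At 12 months it was at 18.1, 47.1, 31.8, 31.1 and 43.5 CPM in control-labelled and at 27.8, 27.4, 27.4, 5.48 and 27.7 CPM in EDA-labelled libraries. In the 22-month groups Bmpr1b reached 36.5, 30.3, 37.1, 36.1 and 12.98 CPM under the control label and 15.6, 23.1 and 23.2 CPM under the EDA label. At both ages every EDA-labelled library lay below the control-labelled median, but the lowest control-labelled values, 18.12 and 12.98 CPM, kept the groups overlapping. The difference between labels had nearly the same size at both ages, -0.57 ± 0.42 (SE) at 12 months and -0.57 ± 0.49 at 22 months, and neither passed (adjusted p = 1.0 in each). Without EDA-labelled replicate 4, where Bmpr1b was at 5.48 CPM, the value at 12 months was -0.31.

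Bmpr2, the type II receptor specific to BMP ligands, was at 148, 151, 87.7, 112 and 224 CPM in control-labelled and at 215, 187, 157, 193 and 78.7 CPM in EDA-labelled libraries at 12 months. At 22 months it was at 212, 97.3, 159, 177 and 229 CPM in control-labelled and at 129, 138 and 189.5 CPM in EDA-labelled libraries. High and low libraries occurred in every group with 5 libraries, and all groups overlapped. The 4 fitted differences lay between -0.20 ± 0.37 (SE), between labels at 22 months, and 0.28 ± 0.32, between ages in control-labelled libraries.

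Signal transducers. Smad5 was the more abundant of the 2 BMP Smads and was above Smad1 in 18 of 18 libraries, with a median TPM ratio of 6.07 (1.46 to 39.58). At 12 months Smad5 was at 91.1, 59.7, 109, 89.3 and 123 CPM in control-labelled and at 113, 98.1, 81.2, 271 and 102 CPM in EDA-labelled libraries. The 22-month values were 108, 53.03, 112, 108 and 82.2 CPM with the control label and 64.9, 126 and 54.7 CPM with the EDA label. One library, EDA-labelled replicate 4 of 12 months, held 4300 reads of Smad5 at 271 CPM, and the next highest value was 126 CPM. The difference between ages in EDA-labelled libraries had the smallest p of all members and comparisons, with a log2 fold change of -0.70 ± 0.41 (SE) and an adjusted p of 0.9652 in edgeR. Without that library it was -0.27, and the difference between labels at 12 months went from 0.49 ± 0.35 (SE) to 0.06.

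Smad1, which the same receptors phosphorylate, was low and was carried by 6 to 242 reads per library. The 12-month values were 3.93, 11.2, 12.4, 8.76 and 6.01 CPM with the control label and 8.15, 8.21, 12.6, 7.37 and 10.5 CPM with the EDA label. In the 22-month groups Smad1 reached 9.60, 4.54, 7.27, 7.24 and 2.60 CPM under the control label and 3.03, 9.01 and 0.527 CPM under the EDA label. The lowest value, 0.527 CPM from 6 reads, was in EDA-labelled replicate 3 of 22 months, and the highest of that group, 9.01 CPM, lay inside the 12-month range. That replicate 3 also had the fewest genes at 10 reads or above of all libraries, 9703. Between ages the fitted difference in EDA-labelled libraries was -1.16 ± 0.73 (SE, adjusted p = 0.9885 in edgeR) and -0.64 without that replicate 3. Between labels it was 0.15 ± 0.63 at 12 months and -0.57 ± 0.73 at 22 months, the latter -0.05 without replicate 3.

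Targets. Id3 was the most abundant gene of the set and, with Bmp4, one of the 2 that varied most for their level. At 12 months it was at 172, 82.8, 210.0, 240.4 and 150.3 CPM in control-labelled and at 137, 119, 48.1, 2.84 and 195 CPM in EDA-labelled libraries. At 22 months it was at 115, 37.5, 62.4, 154 and 169.6 CPM in control-labelled and at 128, 161 and 79.3 CPM in EDA-labelled libraries. EDA-labelled replicate 4 of 12 months, with 45 reads, was the lowest of all 18 libraries, and the next lowest value was 37.5 CPM in the control-labelled 22-month library rich in photoreceptor markers. Next came 48.1 and 62.4 CPM, in the 2 libraries rich in oligodendrocyte markers. The within-group SD of Id3 was 1.45 on the log2 scale, larger than in 93.3% of 852 genes of like abundance, and 0.76 without EDA-labelled replicate 4, larger than in 91.1% of the same genes. In bulk samples, fewer cells of a type and less RNA per cell cannot be told apart. Between labels the log2 fold change was -0.77 ± 0.62 (SE) at 12 months, -0.45 without that replicate, and 0.19 ± 0.72 at 22 months. Between ages it was -0.67 ± 0.62 in control-labelled and 0.29 ± 0.72 in EDA-labelled libraries, the latter -0.02 without that replicate. The adjusted p was 1.0 for all 4. Without the oligodendrocyte-rich library of the groups compared, the values between labels were -0.59 at 12 and 0.05 at 22 months, and those between ages -0.52 in control-labelled and 0.11 in EDA-labelled libraries. Without the control-labelled 22-month library rich in photoreceptor markers, the value between labels at 22 months was -0.03.

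Id1, often used as the readout of BMP receptor activity, was close to undetected. The 12-month values were 0, 0, 0.199, 5.90 and 0.345 CPM with the control label and 0.913, 0.135, 0.0520, 1.14 and 0.320 CPM with the EDA label. The 22-month values were 0.315, 0, 0, 0.598 and 0 CPM with the control label and 0, 0.688 and 0.527 CPM with the EDA label. A single library, control-labelled replicate 4 of 12 months, held 109 reads, and the other 17 held 0 to 18. The fitted difference between labels at 12 months followed that library: it was -1.33 ± 1.74 (SE), and 1.84 without it, and the difference of mean log2 CPM had the other sign, at 0.16. The difference between ages in control-labelled libraries went from -2.76 ± 1.78 (SE) to 0.41 without the same library. Id3 was above Id1 in 18 of 18 libraries. Of the summed TPM of Id1, Id2, Id3 and Id4, Id3 made up a median of 50.5%, from 10.7% in EDA-labelled replicate 4 of 12 months to 72.4%.

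**Figure D2:**
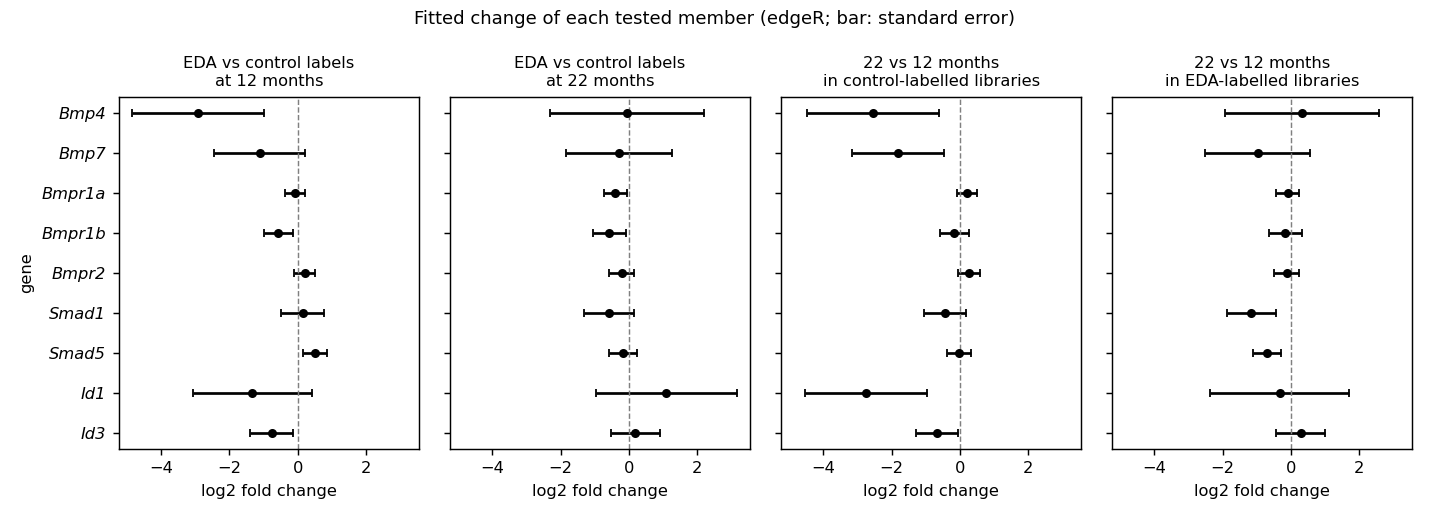
Fitted log2 fold change of the 9 tested genes in 4 comparisons, with bars of 1 standard error; each panel is the first group minus the second. The bars are widest for Bmp4, Bmp7 and Id1, the genes with the fewest reads, and 0 of 9 genes passed the threshold in any panel.

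Across the set, 9 of 10 genes passed the filter on low counts and 0 of 9 were called at an adjusted p of 0.05 in edgeR in any of the 5 contrasts, which were the labels at each age, the ages within each label and their interaction. The background was also 0: of 15118 genes, 0% were called in each of the 5, although 599, 689, 530, 753 and 608 genes had an unadjusted p under 0.05. Of the 9 genes, 0 had an unadjusted p under 0.05 in any contrast. DESeq2, run on the same genes, called 0.232%, 0.146%, 0.152%, 0.284% and 0.245% of all genes, which were 35, 22, 23, 43 and 37, and 0 of the 9. In CPM, the groups failed to overlap for 0 of the 9 genes in each of the 4 pairwise comparisons, against 2.75% of all genes between labels at 22 months, 1.26% between labels at 12 months, 0.556% between ages in control-labelled and 4% between ages in EDA-labelled libraries.

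The fitted values lay below 0 for most of the 9 genes, but none was called. Between labels 2 of 9 were above 0 at 22 months and 3 of 9 at 12 months, with medians of -0.20 and -0.57, and 46.0% and 49.5% of all genes tested were above 0, with medians of -0.07 and -0.01. Between ages 2 of 9 were above 0 in control-labelled and 2 of 9 in EDA-labelled libraries, with medians of -0.44 and -0.17, against 51.6% and 46.9% of all genes, with medians of 0.02 and -0.06. In the interaction, the difference at 22 months minus that at 12 months, 4 of 9 were above 0 and the median was 0.00, against 47.2% and -0.07 for all genes. The comparisons share groups of libraries with one another, and the genes of 1 pathway are not independent, so these counts are descriptions. The largest interaction values were again those of the low genes, 2.86 ± 2.97 (SE) for Bmp4 and 2.42 ± 2.70 for Id1, and Id3 had 0.96 ± 0.95 (adjusted p = 0.9999 in edgeR for each).

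The balance between partner genes within a library was compared next, because a share does not depend on the scaling between libraries. Smad1 made up a median of 14.1% of the summed TPM of Smad1 and Smad5, from 2.46% to 40.7%. The share was 23.9% ± 12.0 (SD, n = 5) in control-labelled and 15.4% ± 4.59 (SD, n = 5) in EDA-labelled libraries of 12 months; at 22 months the values were 14.5% ± 3.41 (SD, n = 5) and 9.55% ± 6.20 (SD, n = 3). The mean TPM share was lower in EDA-labelled libraries at both ages and lower at 22 months under both labels. The differences of -8.51, -4.91, -9.44 and -5.84 percentage points stayed within the spread. Exact two-sided permutation p-values ran from 0.127 to 0.2321, with an adjusted p of 0.3095 for each over the 8 share tests. TPM shares also move with the isoform lengths assigned, which CPM does not use. In CPM at 12 months, mean Smad1 was 8.46 under the control label and 9.37 under the EDA label (medians 8.76 and 8.21). Mean Smad5 was 94.4 and 133 CPM. Without EDA-labelled replicate 3 of 22 months, the lowest library at 2.46%, the differences that involve its group were -1.37 and -2.30 points. The highest share, 40.7% in control-labelled replicate 2 of 12 months, came from a library in which all Smad1 TPM was assigned to Smad1-201, a short transcript without a coding region in the annotation. That library held 138 reads of Smad1 and 733 of Smad5.

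The share of Bmpr1b in the summed TPM of Bmpr1a and Bmpr1b was 26.9% ± 9.78 (SD, n = 5) in control-labelled and 15.4% ± 5.41 (SD, n = 5) in EDA-labelled libraries at 12 months. At 22 months it was 18.9% ± 6.19 (SD, n = 5) and 19.5% ± 5.21 (SD, n = 3). The difference at 12 months was -11.51 points with an exact permutation p of 0.1032 and an adjusted p of 0.3095, and -9.14 points without EDA-labelled replicate 4. At 22 months it was 0.62 points with an exact permutation p of 0.8929. Between ages it was -7.99 points in control-labelled libraries (exact permutation p = 0.1508, adjusted p = 0.3095) and 4.14 points in EDA-labelled libraries (exact permutation p = 0.4821, adjusted p = 0.551), and none passed. Bmpr1a was above Bmpr1b in 18 of 18 libraries, with a median ratio of 4.65 (1.74 to 15.97).

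**Figure D3:**
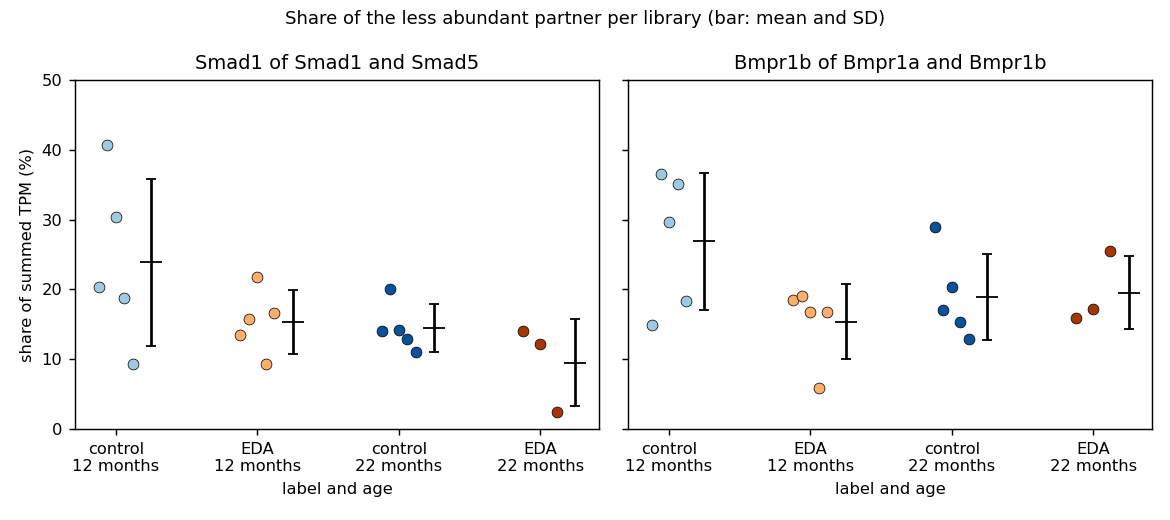
Share of Smad1 in Smad1 and Smad5 (left) and of Bmpr1b in Bmpr1a and Bmpr1b (right), in percent of summed TPM, with 1 point per library and a bar for the mean and SD of each group. The control-labelled 12-month libraries are the most scattered, from 9.29% to 40.66% for Smad1, and the groups overlap in both panels.

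Set against the TGF-beta Smads, Smad1 and Smad5 together made up a median of 51.8% of the summed TPM of Smad1, Smad5, Smad2 and Smad3, from 43.2% to 81.0% over 18 libraries. The group medians were 52.8% in control-labelled and 51.5% in EDA-labelled libraries of 12 months; at 22 months the values were 49.2% and 52.0%. The type I receptors Bmpr1a and Bmpr1b made up 58.3% (median, 41.2% to 89.6%) of the TPM of the 4 type I receptors Bmpr1a, Bmpr1b, Acvr1 and Acvrl1. Bmpr2 made up 33.3% (median, 21.0% to 76.7%) of the TPM of the type II receptors Bmpr2, Acvr2a and Acvr2b, and the highest value of both shares was in EDA-labelled replicate 4 of 12 months. These shares are given without a test.

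Isoform estimates showed which transcripts carried the levels. Bmpr2 and Bmp7 came almost wholly from 1 coding transcript, at a median of 99.8% and 100% of the gene's TPM. Bmpr1a divided between 2 coding transcripts, Bmpr1a-201 (5956 nt) at a median of 57.6% (17.7% to 96.3%) and Bmpr1a-202 (1945 nt) at 41.3%, and Smad5 between Smad5-201 at 54.2% and Smad5-202 at 40.9%. Id3-201, the coding transcript, held a median of 99.2% of Id3, but 21.1% in EDA-labelled replicate 4 of 12 months, where a transcript annotated with a retained intron took 78.9% of a gene level of 5.96 TPM. Smad1 was the exception among the Smads: the coding share had a median of 44.2% and ran from 0% to 100%, and Smad1-201 (1746 nt), annotated as a processed transcript without a coding region, took a median of 35.4%. RSEM divides reads among isoforms by estimated likelihood and TPM depends on the length of the isoform chosen, so a Smad1 level from a few reads moves with that division, whereas the counts used for the tests do not use isoform lengths.

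Whether the members varied together was examined in 8 pairs, on log2 CPM less the group mean over 18 libraries with 100000 permutations. Bmpr1a and Bmpr1b had the highest correlation, with Pearson's r = 0.58 (permutation p = 0.01235, adjusted p = 0.0988 over the 8 pairs) and Spearman's rho = 0.35 (permutation p = 0.1613). Without the 2 libraries farthest from the median of Bmpr1a the value was r = 0.65 (adjusted permutation p = 0.04744), and without EDA-labelled replicate 4 of 12 months it was r = 0.47 (adjusted permutation p = 0.1543). The targets Id1 and Id3 had r = 0.01 (permutation p = 0.9584) and rho = 0.26 (permutation p = 0.2896), with Id1 at 0 in 6 libraries, r = 0.36 without the 2 farthest libraries and r = 0.47 without EDA-labelled replicate 4 (adjusted permutation p = 0.1543). Smad1 and Smad5 had r = 0.30 (permutation p = 0.2264) and rho = 0.20 (permutation p = 0.4361), with r = 0.18 without the farthest 2 and r = 0.48 without EDA-labelled replicate 4 (adjusted permutation p = 0.1543). The ligands and the antagonist gave r between -0.12 and 0.35 with Id1 or with each other, and 0 of 8 pairs passed after adjustment with all 18 libraries.

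**Figure D4:**
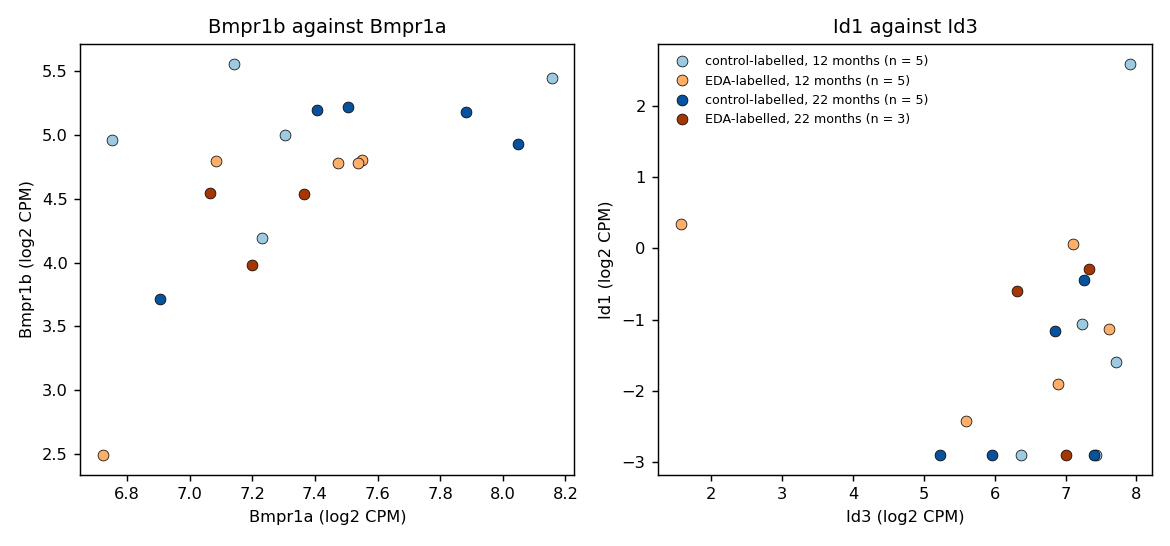
Left, Bmpr1b against Bmpr1a, and right, Id1 against Id3, as log2 CPM with 1 point per library and colours for the 4 groups. The library at the lower left of the first panel and at the far left of the second is EDA-labelled replicate 4 of 12 months, with Bmpr1b at 2.49 and Id3 far below the others; points at -2.90 on the axis of Id1 are libraries with 0 reads.

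The genes most like each member were ranked by Pearson's r of log2 CPM over the same 18 libraries, among 7192 or 7193 genes whose mean reached 2 log2 CPM, as a description without a p-value. Libraries share their depth and their cell makeup, which enters every such value. For Id3 these were Cadps2 (r = 0.96), Tesk2 (r = 0.94) and Nid1 (r = 0.94), and the values were 0.86, 0.75 and 0.85 without EDA-labelled replicate 4 of 12 months. For Smad1 they were Ipmk, Tbc1d14 and Sp4 (0.91, 0.89 and 0.89) and for Bmpr1b Vwa5a, Rhoa and Ccni (0.91, 0.89 and 0.88). The values for Bmpr1b were 0.79, 0.72 and 0.70 without EDA-labelled replicate 4 of 12 months. For Bmp7 they were Atad2b, Rnpc3 and Mpi (0.86, 0.83 and 0.80) and for Bmpr1a Ankib1, Rab30 and Zbtb41 (0.84, 0.83 and 0.82). For Smad5 they were Bicra and Bcl9l (0.82 and 0.82, or 0.71 and 0.77 without that library). With all 18 libraries, values were lowest for Bmpr2, Id1 and Bmp4. Bmpr2 had Icosl, Dennd4a and Nxpe4 (0.72, 0.72 and 0.70). Id1 had Cdk7, Kirrel and Mab21l2 (0.78, 0.73 and 0.71), and Bmp4 had Gxylt1, Wdr20 and Pdzd8 (0.70, 0.65 and 0.65). No BMP pathway gene was among the leading 3 of any member.

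The remaining genes of the pathway formed a list of 50, of which 49 were matched and 32 passed the filter. Ligands were low throughout: of 12 matched, the highest medians were 3.53 TPM for Gdf10, 2.63 TPM for Gdf11 and 0.94 TPM for Bmp2, and the other 9 had a median of 0. Several extracellular modulators were far more abundant than any ligand, with medians of 741.26 TPM for Nbl1, a DAN-family BMP antagonist, 642.97 TPM for Twsg1, which binds BMP together with chordin, and 222.74 TPM for Crim1, a membrane protein that binds BMPs. The classical antagonist Nog was at 0 in 13 of 18 libraries, and Fst, Sost and Sostdc1 were at 0 in all 18. Smad4, the partner of all receptor-activated Smads, had a median of 140.8 TPM, and the related targets Id4 and Id2 had medians of 124.52 and 29.02 TPM.

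**Figure D5:**
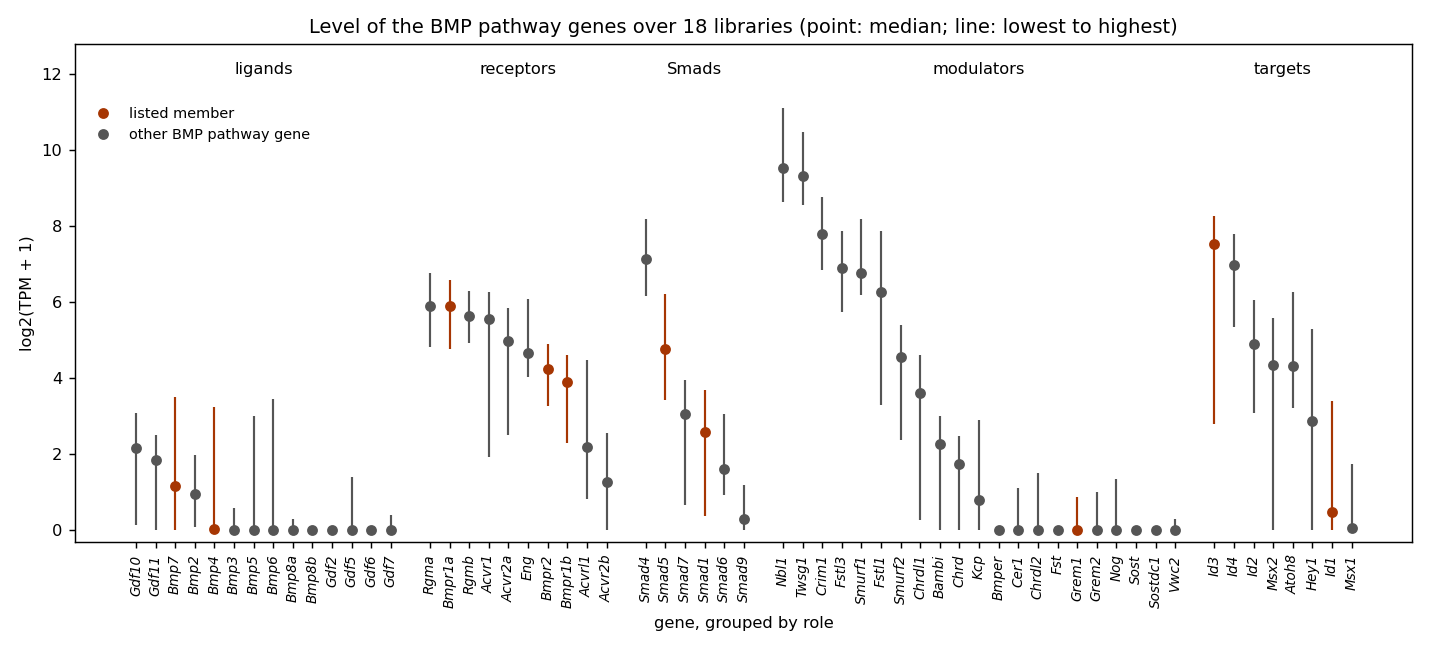
Median level (point) and range from the lowest to the highest library (line) of the 10 members and the 49 other BMP pathway genes over 18 libraries, as log2(TPM + 1), grouped by role. The highest medians are those of Nbl1, Twsg1, Crim1, Id3, Smad4 and Id4, and the ligands lie low, as do Smad9 and Smad6 at 0.24 and 2.04 TPM.

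Of these 32 genes 0 were called in any contrast by edgeR. An unadjusted p under 0.05 was held by 0 between labels at 22 months (3.96% of all genes) and 3 at 12 months (9.38%, against 4.56%). Between ages it was held by 0 in control-labelled (3.51% of all genes) and 4 in EDA-labelled libraries (12.5%, against 4.98%). In the interaction it was held by 1 (3.12%, against 4.02%). At 12 months the smallest p-values between labels were those of Nbl1, Id4 and Id2, none of which passed. Nbl1 had group medians of 856.3 CPM (694.1 to 2312) in EDA-labelled and 636.3 CPM (461.7 to 804.5) in control-labelled libraries. Its log2 fold change was 0.83 ± 0.32 (SE, adjusted p = 1.0 in edgeR). Id4 and Id2, targets from the family of Id1 and Id3, had log2 fold changes of -0.79 ± 0.33 and -1.01 ± 0.43 (SE, adjusted p = 1.0 in edgeR for each). At 22 months they were those of Eng, a co-receptor of endothelial cells (log2 fold change 0.96 ± 0.49), Twsg1 (0.64 ± 0.35) and Kcp, a secreted modulator with few reads (3.01 ± 1.64), each with an adjusted p of 1.0 in edgeR. Beside Eng, the summed level of 5 endothelial markers was 84.06 to 134.4 TPM (median 92.12) in EDA-labelled and 41.67 to 91.57 TPM (median 54.2) in control-labelled libraries, and their part was not tested. Flt1 was the most abundant of the 5, with a median of 52.76 TPM over all libraries, ahead of Cdh5 at 6.08 TPM. Between labels at 22 months groups did not overlap for 1 of the 32, Kcp, and for 2 of 12 genes of the TGF-beta arm, Tgfb1 and Skil, against 2.75% of all genes. Kcp was at 1.51 to 5.21 CPM in EDA-labelled and 0 to 0.787 CPM in control-labelled libraries. Between labels at 12 months 1 of the 32, Hey1, did not overlap, against 1.26% of all genes. It was at 1.387 to 3.834 CPM in EDA-labelled and 4.219 to 14.63 CPM in control-labelled libraries.

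Between ages in EDA-labelled libraries they were those of Eng (log2 fold change 1.48 ± 0.49), Id2 (1.16 ± 0.50) and Rgmb, a BMP co-receptor (0.74 ± 0.34), each with an adjusted p of 0.9612 in edgeR. The lowest Id2 value at 22 months, 25.3 CPM, was above the highest at 12 months, 21.2 CPM, and Id2 was the only 1 of the 32 without overlap here, against 4% of all genes. In the TGF-beta arm Smad3 was the only 1 of 12 without overlap here. It was at 1.494 to 8.664 CPM at 22 months and 8.838 to 16.01 CPM at 12 months. Beside Eng, which endothelial cells express, the summed level of 5 endothelial markers was 84.06 to 134.4 TPM in EDA-labelled libraries at 22 months and 48.21 to 190.28 TPM at 12 months, with medians of 92.12 and 60.77 TPM, and their part in it was not tested. Between ages in control-labelled libraries they were those of Bmp6 (log2 fold change -4.23 ± 2.00), Nbl1 (0.37 ± 0.32) and Acvr2b (1.14 ± 1.30), each with an adjusted p of 1.0 in edgeR. Bmp6 had few reads and was at 0 in 11 of 18 libraries. In control-labelled libraries it ran from 0 to 23.69 CPM (median 1.87) at 12 months and from 0 to 1.44 CPM (median 0) at 22 months. In a list of 12 genes of the TGF-beta arm all 12 were tested and 0 were called. Its smallest unadjusted p-values between labels in edgeR were those of Tgfb1 at 22 months (0.1296) and Smad2 at 12 months (0.08612). Between ages in EDA-labelled libraries the smallest was that of Smad2 (0.1157 in edgeR). Between ages in control-labelled libraries 1 of the 12 had an unadjusted p under 0.05 in edgeR, against 3.51% of all genes, and that gene is not reported here. In both lists, the log2 fold changes of 17 of 32 and 5 of 12 genes were above 0 between labels at 22 months, against 46.0% of all genes. At 12 months they were 14 of 32 and 6 of 12, against 49.5%. Between ages they were 18 of 32 and 3 of 12 in control-labelled libraries, against 51.6%. In EDA-labelled libraries they were 19 of 32 and 3 of 12, against 46.9%. These counts are descriptions without a test.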

How the data were processed

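Laser-captured optic nerve head RNA was amplified with SMART-Seq v4, made into Nextera XT libraries without strand information and read in pairs, then mapped by STAR and estimated per gene by RSEM, per the labels' protocols. GRCm39 is the genome named per the submitters' processing notes. For these tools the version, and for the counting the gene models, were not given in the sources used here. The authors deposited expected counts per gene, which are estimated (13.547% of values above 0 were not whole), and TPM per gene and isoform. RSEM divides reads shared by isoforms or similar genes, so isoform shares are estimates, and without strand, reads of overlapping genes cannot be told apart.

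Symbols came from GENCODE M21 for 52083 of 55416 identifiers, and promoter windows from RefSeq (GRCm38.p6); both belong to another build than the files, so no coordinate was carried between them. Expected counts were rounded. The 15118 genes kept by filterByExpr were scaled by TMM and fitted in edgeR 4.0.16 (R 4.3.3) with robust quasi-likelihood and a mean for each of the 4 groups over 18 libraries. Tests were two-sided with Benjamini-Hochberg adjustment over all genes and a threshold of 0.05. The fit was tested on simulated data. Log2 CPM used a prior count of 2. All pairs of libraries within a group differed beyond sampling noise (lowest chi-square per degree of freedom 42.8). Groups came from the labels; replicate numbers follow accession order and pair nothing.

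The members and lists were chosen with earlier results of these data known. Named were all members, list genes past the threshold or else the 3 with the smallest p in each comparison, the smallest p of the TGF-beta list, and the 3 genes most correlated with each member; 2 results under this rule are not reported here. Kcp was further described, list genes without overlap were named, and the Smad and receptor family shares were added, after the values were seen. Alternatives were DESeq2 1.42.0, RLE scaling, no count filter, the compared groups alone, covariates for sex-linked transcripts or for ENSMUSG00000119584, and leaving out each library. Added after seeing the data were leaving out 2 libraries together, shares from counts, shares with each library left out, and correlations without 1 library. Intervals and floors cover counting error only.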

Additional observations from a re-analysis of the deposited data

Results flagged for a closer look

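In groups of 4 to 10 libraries, 5 of 28 sets of values (1 gene in 1 group) held a library farther from the others than Dixon's criterion allows. Chance gives this in about 1 of 20 sets without ties, a rate that does not apply to 2 of the 5, Bmp4 and Grem1, where the other 4 libraries were tied at 0 reads and any library with reads meets the criterion. In EDA-labelled replicate 4 of 12 months Bmpr1b was at 2.49 log2 CPM against 4.79 to 4.80 in the other 4 libraries, and Smad5 was at 8.08 against 6.35 to 6.82. In control-labelled replicate 5 of 22 months Bmpr1b was at 3.71 against 4.93 to 5.22. Bmp4 in control-labelled replicate 1 of 22 months (1.85, from 44 reads) and Grem1 in control-labelled replicate 5 of 12 months (1.31, from 34 reads) stood against -2.90, the value of 0 reads, in the other 4 libraries of each group.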

How the results depend on the processing

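The count of members called was 0 in all 5 contrasts under every alternative run: DESeq2, RLE scaling, no low-count filter, only the compared groups (4 contrasts, with no interaction), both covariates, each library left out, and EDA-labelled replicate 4 of 12 months with control-labelled replicate 2 of 22 months left out. No direction of a member's fold change turned under DESeq2, RLE scaling or no filter, nor among the 31 of 36 that the smaller fits gave. With a covariate for the ENSMUSG00000119584 share, 6 of 36 turned: between labels at 22 months Id3 to -0.03, Bmp7 to 0.39, Bmpr1a to 0.12 and Bmp4 to 5.36, at 12 months Bmpr1a to 0.30, and between ages in EDA-labelled libraries Id1 to 0.06. With sex-linked transcripts as a covariate Bmp4 between labels at 22 months turned to 0.59 and Smad5 between ages in control-labelled libraries to 0.01. Leaving out 1 library gave these ranges for the values that turned. Between labels at 22 months they were -0.06 to 0.43 for Id3, -1.63 to 0.51 for Bmp7, -0.63 to 0.05 for Smad5, -1.68 to 6.35 for Bmp4 and -2.37 to 3.11 points for the Bmpr1b share. Between labels at 12 months they were -0.21 to 0.19 for Bmpr1a, -0.03 to 0.34 for Smad1 and -1.84 to 1.84 for Id1. Between ages they were -0.16 to 0.12 for Smad5, -3.91 to 0.41 for Id1 and -0.33 to 0.03 for Bmpr1b in control-labelled libraries, and -0.02 to 0.68 for Id3, -1.31 to 1.42 for Bmp4 and -0.96 to 0.25 for Id1 in EDA-labelled libraries. From counts in place of TPM the Bmpr1b share between labels at 22 months was -1.36 points. No other share difference turned, but their sizes from counts are not given here. The count of correlated pairs went from 0 to 1 without the 2 farthest libraries, by Bmpr1a and Bmpr1b (0.65), and r of Bmpr1a and Bmpr2 turned to -0.02. For Bmp7 and Id1 rho was 0.05, and r was 0.02 without EDA-labelled replicate 4. On log2(TPM + 1), r of Id1 was -0.02 with Bmp4 and -0.06 with Grem1. The cause was not tested for any of these, and no turned value passed a threshold. No paired analysis was possible because the labels carry no replicate numbers. Grem1, Id1 and Bmp4 had 0 reads in 17, 6 and 9 libraries, where a level under the limit of 3 reads was not detectable at this depth.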
